A study of Mus musculus with 8 samples.

Results

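The small leucine-rich proteoglycans examined here were 10 genes, Ogn, Dcn, Lum, Bgn, Fmod, Prelp, Aspn, Omd, Podn and Ecm2, chosen by symbol out of the 53801 genes of the deposited table. All 10 passed the filter on low counts and were among the 15643 genes tested. The 8 sequenced libraries hold RNA of stromal cells from the mouse small intestine, sorted as negative for CD45 (leukocytes) and CD31 (endothelium) and positive for YFP. The 4 PDGFRα+ libraries came from cells sorted as expressing PDGFRα, a platelet-derived growth factor receptor of many fibroblasts, and the 4 PDGFRα- libraries from cells sorted as not expressing it. These names are the labels of the sort: Pdgfra RNA was not higher in PDGFRα+ libraries, at 597 ± 69.2 CPM (counts per 1000000) in PDGFRα+ and 652 ± 124 CPM in PDGFRα- libraries (SD, n = 4 each, log2 fold change -0.13, 95% interval -0.50 to 0.24, edgeR adjusted p = 0.971), so the RNA does not check the labels and every direction below rests on them. Both fractions came from mice named LTβRfloxPDGFRα/YFP, so the floxed lymphotoxin β receptor gene is shared by both. The labels give neither age nor sex, neither what drives the recombination behind YFP nor whether each library is a separate mouse, so a p-value here reflects how far libraries of a fraction spread, a spread that may be technical. In units of 1000000 counts, library totals ran from 13.01 to 35.1 for PDGFRα+ and from 12.9 to 26.9 for PDGFRα-.

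Small leucine-rich proteoglycans are secreted matrix proteins built around a solenoid of leucine-rich repeats, and most carry chondroitin, dermatan or keratan sulfate chains. Many bind fibrillar collagen, set the width and spacing of its fibrils, and hold growth factors such as TGF-β and BMP ligands in the matrix. In the gut wall they are made mainly by fibroblasts and other mesenchymal cells. By sequence they fall into classes, with decorin (Dcn), biglycan (Bgn), asporin (Aspn) and the related ECM2 in class I, lumican (Lum), fibromodulin (Fmod), PRELP and osteomodulin (Omd) in class II, osteoglycin (Ogn) in class III and podocan (Podn) in class V.

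The lead result in the family was a lower level of Ogn. It fell to 138.9 ± 37.7 CPM in PDGFRα+ cells, against 332 ± 70.3 CPM in PDGFRα- cells (SD, n = 4 each), and it was the only member past the threshold in the edgeR fit with group alone. DESeq2 with group alone also called Ecm2. CPM are counts per 1000000 of library size scaled by the trimmed mean of M-values (TMM), and a gene was called at a Benjamini-Hochberg adjusted p under 0.05 over all genes tested. With the library number as a further term, Ecm2 was also called as lower and Prelp as higher. Aspn, which lies between Ecm2 and Ogn on the chromosome, differed by less than the spread between libraries. In bulk RNA of sorted cells, fewer cells of a type and less RNA per cell cannot be told apart.

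In the fit with group alone (edgeR), 1 of 10 members was called, as lower, where 0.0511% of all genes tested were called lower, 0.192% higher and 0.243% in either direction. No member was called higher in that fit, and 0 in DESeq2 or limma-voom. Before adjustment 1 member was higher and 3 were lower at p under 0.05 in edgeR, beside 583 and 504 of the 15643 genes tested. DESeq2 called 2 lower, Ogn and Ecm2, where it called 0.411% of its genes lower and 0.552% higher. These DESeq2 shares are over 28255 genes with a p-value, a wider set than the 15643 of the other fits. Limma-voom called 1 lower, Ogn, where it called 0.0575% lower and 0.134% higher. With the number as a term, 1 member was higher and 2 were lower, where 1.34% of all genes were called higher and 0.933% lower. The median log2 fold change of the 10 members was -0.40, against -0.01 over all genes. In the authors' deposited table, whose model holds the number, 2 members are listed as higher (Prelp and Bgn) and 3 as lower (Ogn, Ecm2 and Dcn) at an adjusted p under 0.05. That table calls 2.3% of its genes with an adjusted p as higher and 2.52% as lower, 4.82% in all.

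**Figure D1:**
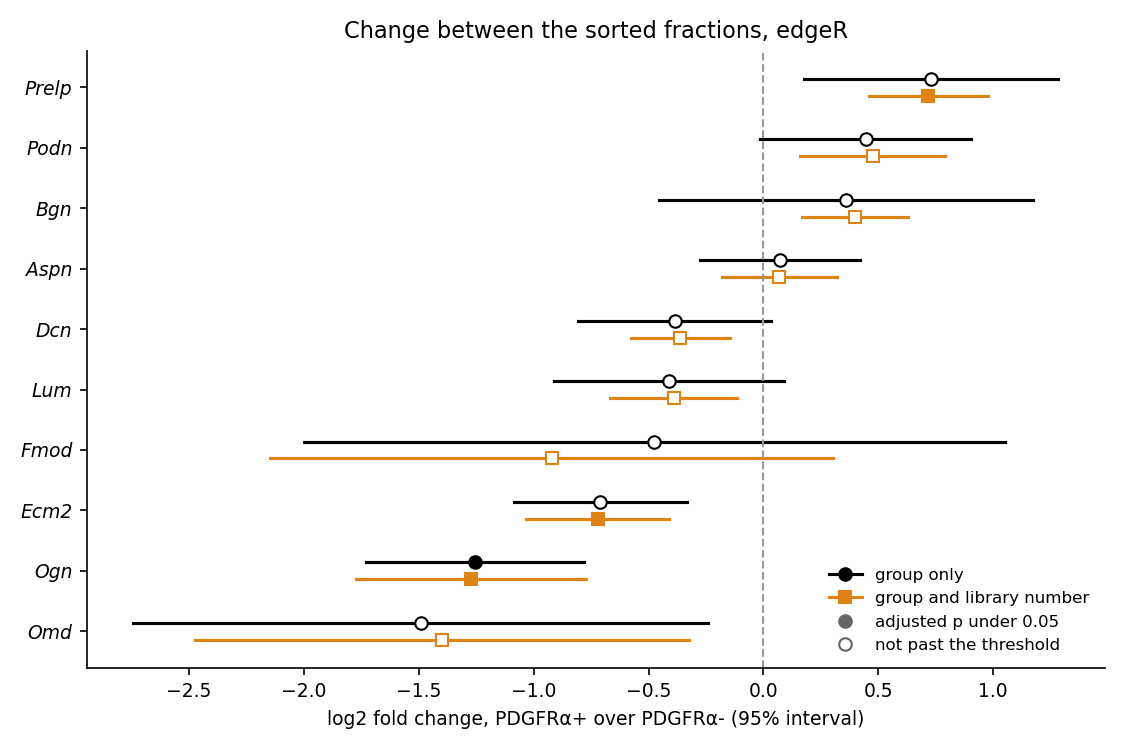
Log2 fold changes of the 10 genes (x axis, PDGFRα+ over PDGFRα-, with 95% intervals) from the edgeR fit with group alone (black) and with group and library number (orange). Filled symbols mark an adjusted p under 0.05, which Ogn reached in both fits and Ecm2 and Prelp only with the number as a term.

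Levels per exonic length spanned a wide range. In CPM per kb of exon, a scale on which genes can be compared, Dcn had the highest level of the 10 in each of the 8 libraries, at 755 ± 111 in PDGFRα+ and 987 ± 248 in PDGFRα- cells (SD, n = 4 each). Lum, Bgn and Aspn followed and traded places between libraries, holding ranks 2 to 4, with mean levels over all libraries of 378, 226 and 234 CPM per kb. Ogn held rank 5 or 6 at 54.1 ± 14.7 in PDGFRα+ and 129 ± 27.4 CPM per kb in PDGFRα- cells. Prelp averaged 37.0, Ecm2 24.8 and Podn 19.3 CPM per kb over all libraries, and their ranks overlapped (5 to 8). Omd and Fmod were the lowest, at 2.45 and 1.71 CPM per kb, and their ranks also overlapped (9 and 10).

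**Figure D2:**
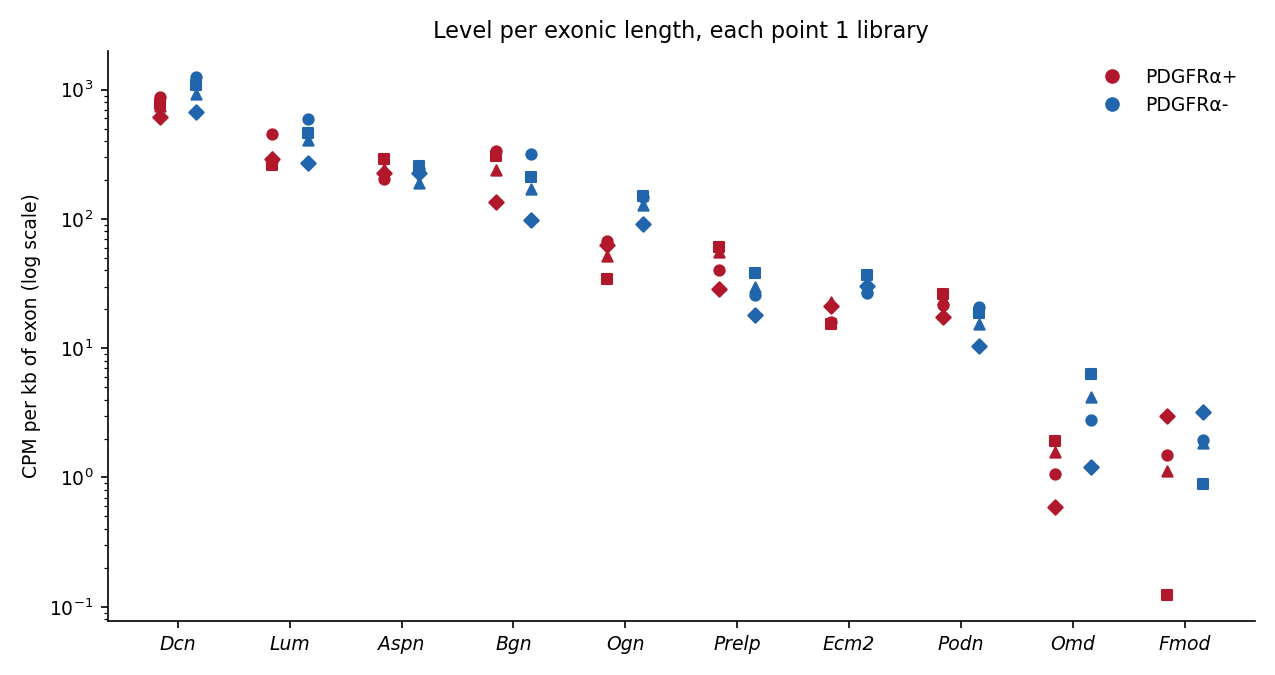
Level of each gene in CPM per kb of exon (log scale), with each library as a point, PDGFRα+ in red and PDGFRα- in blue, and the marker shape giving the library number as in the plot of values by library. Dcn lies highest in every library and Omd and Fmod lowest.

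Ogn encodes osteoglycin, also called mimecan, a class III member that regulates collagen fibril formation (ENSMUSG00000021390, chromosome 13, 49608046 to 49624501, GRCm38). It had 173, 88.2, 133 and 161 CPM in PDGFRα+ libraries 1 to 4, against 379.6, 387, 326 and 234 CPM in PDGFRα- libraries 1 to 4. The groups did not overlap, and the lowest PDGFRα- library, number 4, stood above the highest PDGFRα+ library, number 1. Groups did not overlap for 5.05% of all genes tested, with 2.36% lower and 2.69% higher in PDGFRα+, and for 2 of the 10 members, Ogn and Ecm2. On the log2 scale the change was -1.26 ± 0.22 (SE, 95% interval -1.73 to -0.78, edgeR adjusted p = 0.0345), a 2.39-fold lower level, and -1.27 ± 0.22 with the number as a term (edgeR adjusted p = 0.0211). The call held in 2 of the 8 fits that leave out a library. Leaving out PDGFRα+ library 1, 2 or 3 gave edgeR adjusted p = 0.0539, 0.0620 and 0.122, and leaving out PDGFRα- library 1, 2 or 3 gave 0.0832, 0.138 and 0.136, with log2 fold changes over all 8 such fits from -1.39 to -1.09. With the number as a term it was lost without number 1 (0.116) or number 3 (0.123).

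**Figure D3:**
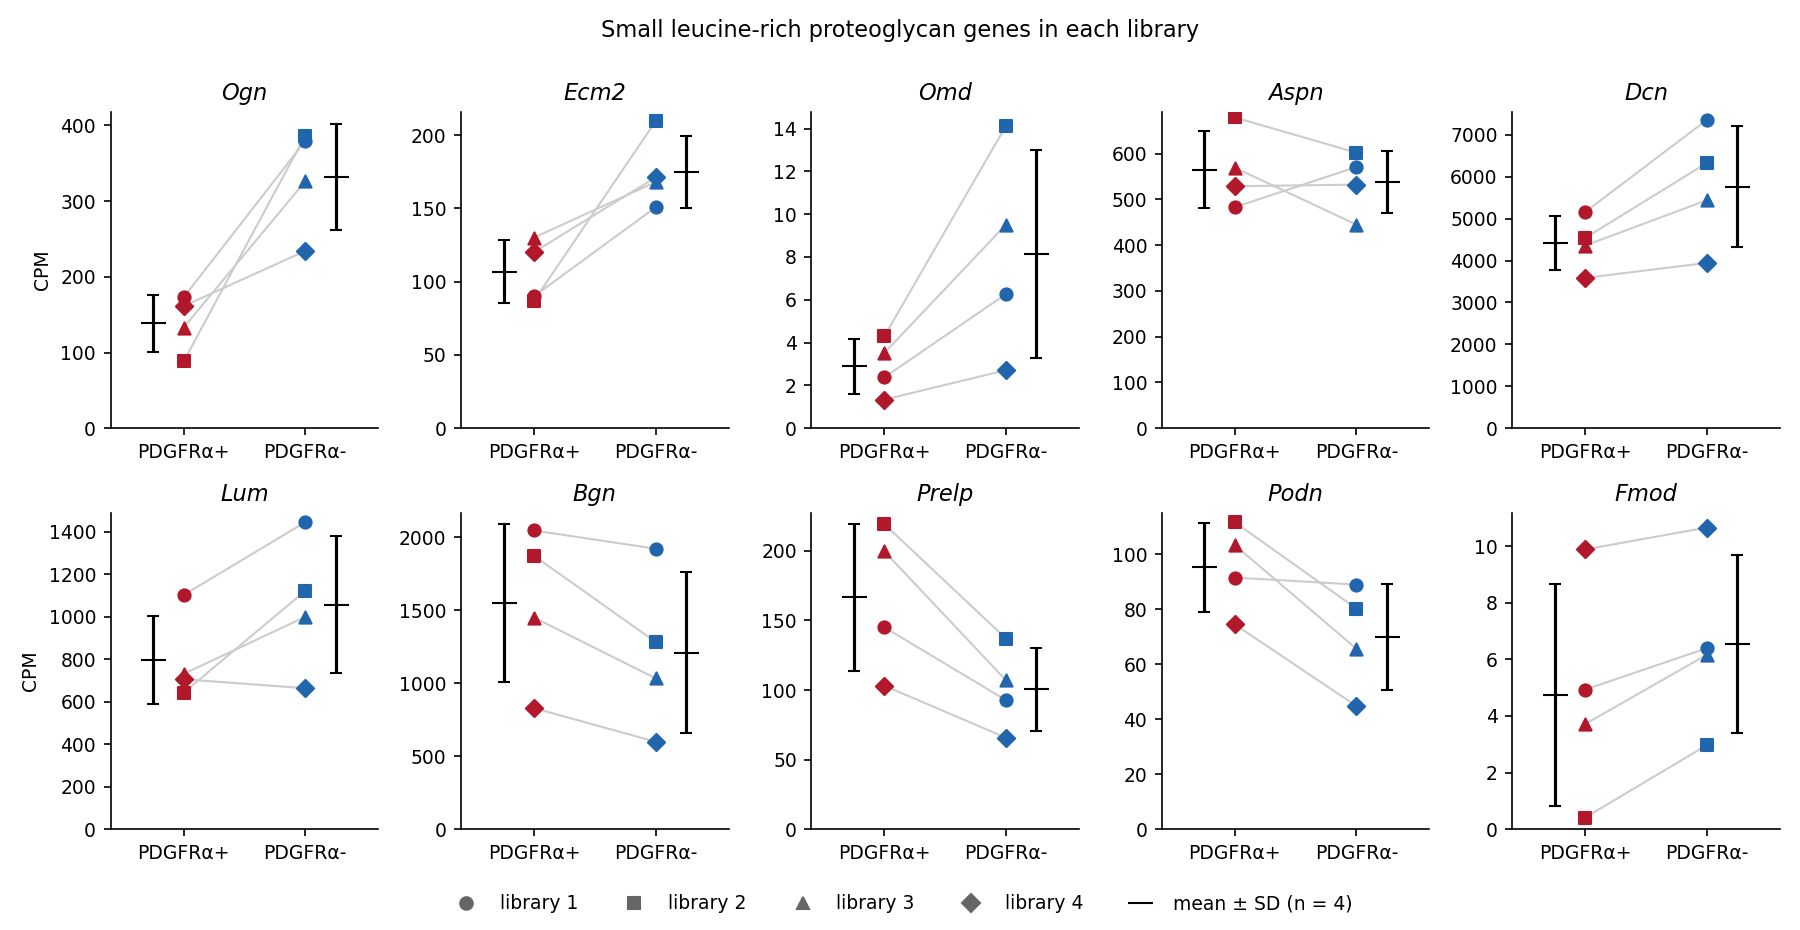
CPM of each gene in each library (y axis from 0), with PDGFRα+ left of PDGFRα-, marker shapes for library numbers 1 to 4, grey lines joining libraries of the same number, and black bars for mean ± SD (n = 4). The groups do not overlap for Ogn and Ecm2. Bgn, Prelp, Dcn and Lum were past the threshold in the edgeR test for differences between library numbers, taken over both groups together.

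Ogn stands in a tight cluster of 4 members on chromosome 13. Ecm2, Aspn, Omd and Ogn lie in this order on the plus strand within 119.7 kb, separated by 11.7, 14.9 and 15.2 kb, and all 4 sit inside the span of Cenpp, a centromere protein gene on the other strand. Cenpp stood at 10.6 ± 4.42 CPM in PDGFRα+ and 8.94 ± 4.11 CPM in PDGFRα- cells (log2 fold change 0.25, edgeR adjusted p = 0.980). Its exons overlap those of Aspn by 7 bases and those of the other three by 0.

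Ecm2, whose product combines leucine-rich repeats with other matrix protein modules (ENSMUSG00000043631, chromosome 13, 49504810 to 49532789), was lower in PDGFRα+ cells in the fit with the number. It had 90.0, 86.9, 130.05 and 120.2 CPM in PDGFRα+ libraries 1 to 4, against 151, 209, 168 and 171 CPM in PDGFRα- libraries 1 to 4. Here too the groups did not overlap. Its log2 fold change of -0.71 ± 0.18 did not pass with group alone in edgeR (SE, edgeR adjusted p = 0.164), though it did in DESeq2 (DESeq2 adjusted p = 0.0256). That of -0.72 ± 0.15 with the number as a term passed in edgeR (edgeR adjusted p = 0.0155). The edgeR adjusted p with the number as a term was 0.0736 without number 1 and 0.0551 without number 3.

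Omd, which encodes osteomodulin, a keratan sulfate proteoglycan known mostly from bone (ENSMUSG00000048368, chromosome 13, 49582462 to 49592822), had the lowest fold change and few reads. It had 83, 105, 109 and 18 raw counts in PDGFRα+ libraries, against 154, 281, 122 and 54 in PDGFRα- libraries. In CPM these were 2.38, 4.30, 3.52 and 1.34 in PDGFRα+, against 6.27, 14.1, 9.51 and 2.71 in PDGFRα- libraries 1 to 4. PDGFRα- library 4 fell within the range of the PDGFRα+ libraries, and the log2 fold change of -1.49 ± 0.58 (SE, 95% interval -2.74 to -0.24) did not pass the test in either fit (edgeR adjusted p = 0.542, and 0.222 with the number).

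Aspn encodes asporin, which binds collagen and TGF-β (ENSMUSG00000021388, chromosome 13, 49544443 to 49567565). It had 483, 679, 569 and 529 CPM in PDGFRα+ libraries 1 to 4, against 571, 602, 445 and 532 CPM in PDGFRα- libraries 1 to 4. The groups overlapped throughout. Its log2 fold change, 0.07 ± 0.16 (SE, 95% interval -0.27 to 0.42), was far from the threshold (edgeR adjusted p = 0.988). The sign of this value turned in 2 of the 8 fits that leave out a library.

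To set cluster neighbours against each other with little effect of library scaling, log2 ratios were taken within each library for the 5 pairs of members that follow each other on a chromosome. This comparison was chosen after seeing the data. Aspn over Ecm2 was 2.41 ± 0.39 in PDGFRα+ and 1.62 ± 0.22 in PDGFRα- libraries (SD, n = 4 each), with no overlap (2-sided exact permutation p = 0.0286, the smallest the design allows, 0.143 adjusted over 5 pairs). Aspn over Omd was 7.68 ± 0.59 in PDGFRα+ and 6.25 ± 1.00 in PDGFRα- libraries (exact permutation p = 0.0857, adjusted 0.214). Ogn over Omd was 5.62 ± 1.09 in PDGFRα+ and 5.53 ± 0.74 in PDGFRα- libraries (exact permutation p = 0.886, adjusted 0.886). No pair passed after adjustment, and 1 pair alone could not have passed, as the smallest p the design allows becomes 0.143. For Ogn over Aspn, given without a test, the log2 ratios were -1.48, -2.94, -2.10 and -1.71 in PDGFRα+, against -0.59, -0.64, -0.45 and -1.18 in PDGFRα- libraries 1 to 4, and the groups did not overlap. Ogn alone also did not overlap, so this ratio is not a separate result.

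**Figure D4:**
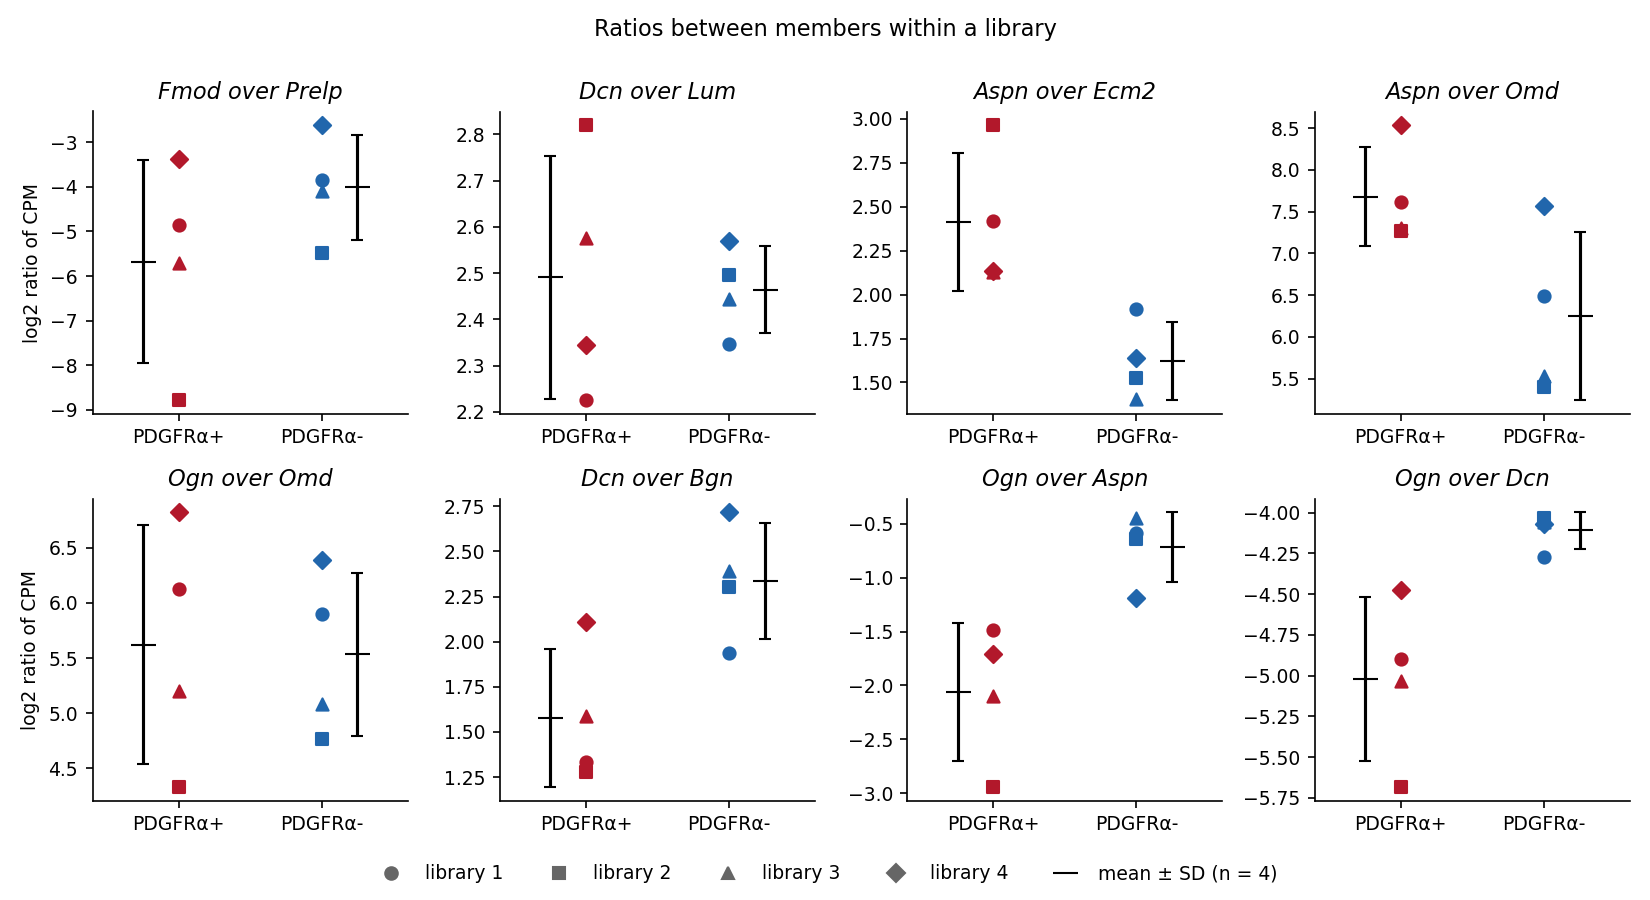
Log2 ratios of CPM between pairs of members within a library (y axis, different range in each panel), PDGFRα+ left of PDGFRα-, with marker shapes for library numbers and black bars for mean ± SD (n = 4). Aspn over Ecm2, Ogn over Aspn and Ogn over Dcn do not overlap between groups, while Dcn over Lum and Ogn over Omd do. Each pair without overlap holds Ogn or Ecm2, whose own CPM did not overlap.

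RefSeq promoter sequences of GRCm38.p6 were found for 8 of the 10 members. They are shown for the 3 members called in either fit and for Aspn, a neighbour that was not, as the 250 bases before the RefSeq start, 5′ to 3′ on the strand of the gene. Capitals mark matches on either strand to the TATA box letters TATAAA, to GGGCGG as bound by Sp1, to GGAATG as bound by TEAD factors, to TGANTCA as bound by AP-1 or to CCAAT as bound by NF-Y. The regions are chr13:49607765-49608014 (plus strand) for Ogn, chr13:49504560-49504809 (plus) for Ecm2, chr13:49544193-49544442 (plus) for Aspn and chr1:133921402-133921651 (minus) for Prelp.
Ogn: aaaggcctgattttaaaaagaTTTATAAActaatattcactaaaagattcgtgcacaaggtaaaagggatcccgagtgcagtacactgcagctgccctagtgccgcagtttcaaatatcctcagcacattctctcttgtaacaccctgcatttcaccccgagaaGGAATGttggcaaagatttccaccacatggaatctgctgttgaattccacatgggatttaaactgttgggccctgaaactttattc
Ecm2: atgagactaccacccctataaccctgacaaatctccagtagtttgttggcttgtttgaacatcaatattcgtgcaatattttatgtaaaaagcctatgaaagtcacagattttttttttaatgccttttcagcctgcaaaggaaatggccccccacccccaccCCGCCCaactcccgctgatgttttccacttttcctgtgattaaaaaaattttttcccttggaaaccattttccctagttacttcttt
Aspn: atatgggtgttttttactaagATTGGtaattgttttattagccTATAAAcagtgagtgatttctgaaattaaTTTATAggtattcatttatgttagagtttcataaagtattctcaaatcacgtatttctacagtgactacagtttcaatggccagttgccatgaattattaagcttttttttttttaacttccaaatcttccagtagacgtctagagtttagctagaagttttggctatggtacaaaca
Prelp: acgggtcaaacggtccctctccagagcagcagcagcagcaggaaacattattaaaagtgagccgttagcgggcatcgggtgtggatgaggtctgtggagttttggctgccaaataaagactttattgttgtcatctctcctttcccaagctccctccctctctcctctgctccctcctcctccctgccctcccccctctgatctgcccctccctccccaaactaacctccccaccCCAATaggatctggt
Ogn had GGAATG once, 86 bases before the start, and TATAAA on both strands at overlapping places more than 200 bases before it. Of 27025 RefSeq promoter windows of the same length, 12.6% held GGAATG and 12.97% TATAAA. Aspn also had TATAAA on both strands and CCAAT once, Ecm2 had GGGCGG once, and Prelp had CCAAT once, 15 bases before the start. GGGCGG was in 32.9% and CCAAT in 34.5% of all windows, and TGANTCA, in 6.87% of them, was in none of the 4 shown. The 4 windows of the chromosome 13 cluster had the lowest GC content of the 8 members, at 42.0% for Ogn, 40.0% for Ecm2, 38.4% for Omd and 30.0% for Aspn, while Fmod had 51.2%, Prelp 55.6%, Bgn 64.4% and Podn, at the first of its 2 listed starts, 78.0%, beside a median of 52.0% over all windows.

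Dcn encodes decorin, which carries a single glycosaminoglycan chain, decorates collagen fibrils and binds TGF-β (ENSMUSG00000019929, chromosome 10, 97479609 to 97518143). It had 5157, 4538, 4357 and 3585.5 CPM in PDGFRα+ libraries 1 to 4, against 7351, 6326, 5437 and 3942 CPM in PDGFRα- libraries 1 to 4. Within each number the PDGFRα+ library was the lower, but PDGFRα- library 4 lay below 3 of the 4 PDGFRα+ libraries. Log2 fold changes were -0.39 ± 0.20 with group alone (SE, edgeR adjusted p = 0.777) and -0.36 ± 0.10 with the number as a term (edgeR adjusted p = 0.0829), neither past the threshold. The authors' deposited table lists Dcn as lower with a fold of 0.772 and an adjusted p of 0.00740.

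Bgn encodes biglycan, the closest relative of decorin in class I, which also binds collagen and TGF-β and in soluble form signals through Toll-like receptors (ENSMUSG00000031375, chromosome X, 73483602 to 73495933). It had 2047.5, 1874, 1451 and 829.9 CPM in PDGFRα+ libraries 1 to 4, against 1923, 1283, 1034.5 and 599 CPM in PDGFRα- libraries 1 to 4. Number 1 was highest and number 4 lowest in both fractions, a span of 2.47-fold within PDGFRα+ and 3.21-fold within PDGFRα-. Log2 fold changes were 0.36 ± 0.36 with group alone (SE, edgeR adjusted p = 0.968) and 0.40 ± 0.11 with the number as a term (edgeR adjusted p = 0.0743), not past the threshold in either fit. The authors' deposited table lists Bgn as higher with a fold of 1.308 and an adjusted p of 0.0106. Dcn over Bgn, given without a test, was 1.33, 1.28, 1.59 and 2.11 on the log2 scale in PDGFRα+, against 1.93, 2.30, 2.39 and 2.72 in PDGFRα- libraries 1 to 4, lower in the PDGFRα+ library of each number.

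Lum encodes lumican, a keratan sulfate proteoglycan that regulates collagen fibril assembly and lies 47.0 kb from Dcn (ENSMUSG00000036446, chromosome 10, 97565128 to 97572703). It had 1102, 643, 731 and 706 CPM in PDGFRα+ libraries 1 to 4, against 1445, 1122, 999.5 and 664 CPM in PDGFRα- libraries 1 to 4. The groups overlapped, and in number 4 the PDGFRα+ library was the higher. Neither fit called it (log2 fold change -0.41 ± 0.23 SE, edgeR adjusted p = 0.841, and 0.168 with the number), but without number 4 the fit with the number did (edgeR adjusted p = 0.0458). Dcn over Lum was 2.49 ± 0.26 in PDGFRα+ and 2.46 ± 0.09 in PDGFRα- libraries on the log2 scale (SD, n = 4 each, exact permutation p = 0.857, adjusted 0.886).

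Prelp encodes a class II protein with a basic, heparin-binding end that is known to anchor basement membranes to collagen (ENSMUSG00000041577, chromosome 1, 133910304 to 133921414), and it was higher in PDGFRα+ cells in the fit with the number. It had 145, 219, 199.6 and 103 CPM in PDGFRα+ libraries 1 to 4, against 92.7, 137, 107 and 65.7 CPM in PDGFRα- libraries 1 to 4. The PDGFRα+ library was the higher in each number, with log2 ratios from 0.65 to 0.90, while the groups overlapped. Log2 fold changes were 0.73 ± 0.26 with group alone (SE, edgeR adjusted p = 0.449) and 0.72 ± 0.12 with the number as a term (edgeR adjusted p = 0.00417), a 1.65-fold higher level. This adjusted p was 0.0794 without number 3. Exons of Prelp overlap 350 bases of Gm15851 on the other strand, which stood at 2.41 ± 0.64 CPM in PDGFRα+ and 2.54 ± 1.44 CPM in PDGFRα- cells. With the strand setting of the counting not given, reads of overlapping genes cannot be told apart here or at Aspn.

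Fmod encodes fibromodulin, which binds collagen and lies 115.8 kb from Prelp (ENSMUSG00000041559, chromosome 1, 134037254 to 134048277), and had the lowest level per exonic length of the 10 genes averaged over all libraries. It had 172, 10, 115 and 133 raw counts in PDGFRα+ libraries, against 157, 59, 79 and 212 in PDGFRα- libraries, or 4.93, 0.41, 3.71 and 9.88 CPM in PDGFRα+ against 6.39, 2.97, 6.16 and 10.7 CPM in PDGFRα- libraries 1 to 4. Number 2 was lowest and number 4 highest in both fractions, a span of 24.1-fold within PDGFRα+ and 3.59-fold within PDGFRα-. The difference was smaller than this spread (log2 fold change -0.47 ± 0.71 SE, 95% interval -1.9995 to 1.05, edgeR adjusted p = 0.975, and 0.613 with the number, at -0.92). Leaving out a library gave log2 fold changes from -1.11 without PDGFRα+ library 4 to -0.09 without PDGFRα+ library 2. Fmod over Prelp was -5.68 ± 2.28 in PDGFRα+ and -4.01 ± 1.18 in PDGFRα- libraries on the log2 scale (SD, n = 4 each, exact permutation p = 0.257, adjusted 0.429), a difference of -1.67 that was -0.64 without PDGFRα+ library 2 and -2.44 without PDGFRα+ library 4.

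Podn encodes podocan, which binds type I collagen and restrains growth of vascular smooth muscle cells (ENSMUSG00000028600, chromosome 4, 108014791 to 108096445). It had 91.5, 111.6, 103 and 74.4 CPM in PDGFRα+ libraries 1 to 4, against 88.9, 80.2, 65.6 and 44.8 CPM in PDGFRα- libraries 1 to 4. The PDGFRα+ library was the higher in each number, by little in number 1, and the groups overlapped. It was not called in either fit (log2 fold change 0.45 ± 0.21 SE, edgeR adjusted p = 0.746, and 0.135 with the number).

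The library number went with several members over both fractions together. Tested in edgeR for differences between numbers, with the group kept in the model, Bgn, Prelp, Dcn and Lum were past the threshold (adjusted p = 0.000232, 0.00646, 0.0383 and 0.0446) and the other 6 were not, with adjusted p = 0.830 for Ogn and 0.717 for Ecm2. Over all genes, 669 of the 15643 tested were past the threshold in this test of number. Over the numbers, 5 members were lower in the PDGFRα+ library of all 4 numbers (Ogn, Ecm2, Omd, Dcn and Fmod) and 3 were higher in all 4 (Bgn, Prelp and Podn), where 10.2% and 10.3% of all genes tested were. The labels do not say what libraries of the same number share.

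Other cell types and fibroblast subtypes were checked by summed CPM of marker lists. Adventitial fibroblast genes, 7 of 7 tested, summed to 1214 to 1701 CPM in PDGFRα+ and 1654 to 2581 CPM in PDGFRα- libraries, and subepithelial telocyte genes, 6 of 7 tested with Foxl1 listed at 0, to 131 to 178 and 101 to 107 CPM in PDGFRα+ and PDGFRα- libraries. Fibroblast genes summed to 90569 to 113870 CPM in PDGFRα+ and 119190 to 166420 CPM in PDGFRα- libraries, pericyte genes to 974 to 1439 CPM in PDGFRα+ and 1129 to 1805 CPM in PDGFRα- libraries, and smooth muscle genes to 452 to 1509 CPM in PDGFRα+ and 356 to 1784 CPM in PDGFRα- libraries. The endothelial sum was 73.0 to 189 CPM in PDGFRα+ and 101 to 797 CPM in PDGFRα- libraries, with 797 in PDGFRα- library 4 and at most 168 in the others. Leukocyte genes reached 28.7 CPM in PDGFRα+ and 58.9 CPM in PDGFRα- libraries, and epithelial genes 33.3 CPM in PDGFRα+ and 59.3 CPM in PDGFRα- libraries. The highest sums in a PDGFRα+ and a PDGFRα- library were 4.75 and 9.25 CPM for glial genes, 1.43 and 11.5 CPM for neuronal genes, 37.4 and 33.2 CPM for interstitial cells of Cajal and 13.4 and 4.99 CPM for mesothelial genes. Tubb3 and Higd1b were also listed at 0, as was Itgam in the 1 of its 2 entries used here. Exons of that Itgam entry overlap another gene on the same strand, while those of Foxl1, Tubb3 and Higd1b overlap none. Why these genes had no counts was not tested, so a 0 is not read as absence. With the number as a term, single genes of these lists were called: Grem1 and Cd81 (adventitial) and Abcc9 (pericyte) as lower, with log2 fold changes of -1.03, -0.99 and -1.40, and Frzb and Bmp5 (telocyte), Myocd (smooth muscle) and Cspg4 (pericyte) as higher, at 2.91, 1.502, 1.22 and 1.17 (edgeR adjusted p from 0.000563 to 0.0402), beside the collagen genes of the fibroblast list and Dpt, whose values stand with the fibril genes. In the fit with the number, 1.34% of all genes tested were called higher and 0.933% lower. The called genes do not stand for their lists. With group alone, log2 fold changes were above 0 for 0 of 7 tested adventitial and 5 of 6 telocyte genes. They were above 0 for 3 of 7 smooth muscle, 1 of 6 pericyte and 3 of 8 fibroblast genes. For endothelial, epithelial and leukocyte genes the counts were 0 of 9, 0 of 7 and 2 of 7, so adventitial genes were not alone in this. Median log2 fold changes were -0.96 for adventitial, -1.28 for endothelial and -1.43 for epithelial genes. The telocyte gene Wnt5a was lower, at -0.50, and was not called in either fit. The part of these lists in the changes of Ogn, Ecm2 and Prelp was not tested. Without PDGFRα- library 4 the log2 fold changes with group alone were -1.39 for Ogn, -0.72 for Ecm2 and 0.58 for Prelp (edgeR adjusted p = 0.0118, 0.224 and 0.643).

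Genes of collagens and other fibril proteins, on which these proteoglycans act, were called in both directions with the number as a term. Of 12 tested genes none was called with group alone in edgeR. Before adjustment 1 was higher and 5 lower at p under 0.05, beside 583 and 504 of the 15643 genes tested. DESeq2 called 1 higher and 4 lower (0.552% and 0.411% of all its genes with a p-value) and limma-voom 0. With the number as a term 2 were higher and 5 lower, where 1.34% and 0.933% of all genes tested were. The fibril-associated collagen gene Col14a1 fell to 1494.5 ± 180.4 CPM in PDGFRα+ cells, against 2357 ± 405 CPM in PDGFRα- cells, and Dpt, which encodes dermatopontin, a decorin-binding matrix protein, to 893 ± 87.5 CPM in PDGFRα+, against 1313 ± 209 CPM in PDGFRα- cells (edgeR adjusted p with the number 0.00882 and 0.0138). Col3a1, Col1a1 and Col1a2 were the other three lower genes, with log2 fold changes of -0.50, -0.54 and -0.55. Col12a1, another fibril-associated collagen gene, rose to 411 ± 102 CPM in PDGFRα+, against 232.5 ± 43.3 CPM in PDGFRα- cells (edgeR adjusted p with the number 0.000819), and the thrombospondin gene Thbs2 was also called, at 0.66. Over the 12 genes the median log2 fold change was -0.29, or -0.39 with the number, against -0.01 over all genes in both fits.

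Of the genes that build the sugar chains none was called, beside 0.243% of all genes tested with group alone and 2.27% with the number, to which these counts are near. None of 20 tested genes of chondroitin and dermatan sulfate synthesis was called in either fit (edgeR), nor by DESeq2 or limma-voom. Before adjustment 1 without and 2 with the number were higher at p under 0.05. Of the 15643 genes tested, 583 without and 927 with the number were higher at that threshold. The median log2 fold change was -0.04. The most abundant were the chondroitin polymerizing factor gene Chpf, at 119.8 ± 3.31 CPM in PDGFRα+ and 112 ± 10.99 CPM in PDGFRα- cells, and Xylt1, which encodes a xylosyltransferase that starts the chains, at 88.9 ± 12.4 and 107.6 ± 28.2 CPM in PDGFRα+ and PDGFRα- cells. None of 4 tested keratan sulfate genes was called by edgeR, DESeq2 or limma-voom (before adjustment, 0 without and 1 with the number at p under 0.05). The galactosyltransferase gene B4galt1 stood at 180.8 ± 11.7 CPM in PDGFRα+ and 190.5 ± 14.8 CPM in PDGFRα- cells, and the sulfotransferase gene Chst2 at 13.02 ± 6.49 and 10.1 ± 6.15 CPM in PDGFRα+ and PDGFRα- cells. Chst13, Chst15 and B3gnt2 were listed at 0 in all libraries, which is not read as absence, and exons of B3gnt2 overlap those of other genes on the same strand.

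Of the 12 enzyme genes that process or cleave these proteoglycans or procollagen, 1 was called, as lower, with the number as a term. In that fit 0.933% of all genes tested were called lower and 2.27% in either direction. Pcolce2, which encodes an enhancer of procollagen processing, was at 14.9 ± 6.04 CPM in PDGFRα+ and 34.5 ± 13.7 CPM in PDGFRα- cells (log2 fold change -1.18, edgeR adjusted p = 0.0261 with and 0.297 without the number). With group alone edgeR, DESeq2 and limma-voom called 0 of the 12. Before adjustment 1 was lower at p under 0.05 in edgeR, beside 504 of the 15643 genes tested. The metalloproteinase genes Mmp2 and Mmp14 had the highest CPM of the list, with log2 fold changes of 0.20 and -0.07. Of 9 receptor genes for decorin, biglycan or lumican edgeR called 0 in either fit, as did DESeq2 and limma-voom. Over all genes tested edgeR called 0.243% with group alone and 2.27% with the number. Before adjustment 1 receptor gene was higher at p under 0.05 with group alone, beside 583 of the 15643 genes tested. The endocytic receptor gene Lrp1 stood at 2967 ± 603 CPM in PDGFRα+ and 3181.5 ± 892 CPM in PDGFRα- cells, and Igf1r, the IGF1 receptor gene, at 352 ± 93.1 and 343 ± 75.7 CPM in PDGFRα+ and PDGFRα- cells.

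Among the other small leucine-rich proteoglycan genes, 3 of 7 were tested. Neither edgeR fit called any of them (0 at p under 0.05 before adjustment), and DESeq2 and limma-voom called 0. Over all genes tested edgeR called 0.243% with group alone and 2.27% with the number. Tsku, which encodes tsukushi, a BMP-binding class IV member, stood at 22.2 ± 4.28 CPM in PDGFRα+ and 17.1 ± 5.41 CPM in PDGFRα- cells. Epyc and Optc, class III relatives of Ogn, stood at 4.15 ± 2.71 and 2.21 ± 1.56 CPM in PDGFRα+ and at 3.49 ± 4.44 and 3.07 ± 1.36 CPM in PDGFRα- cells. Kera, the class II keratocan gene, had 1 count over all PDGFRα+ and 6 over all PDGFRα- libraries.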

How the data were processed

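RNA of 8 libraries was read from 1 deposited table. Per the labels' protocols, sorted cells were lysed and libraries made with the SMARTer Stranded Total RNA-Seq Pico kit. The submitters' processing notes name GRCm38 (mm10), STAR 2.7.3a, cutadapt 3.4, DESeq2 and featureCounts 2.0.1. Parameters, strand setting and annotation release were not given in the sources used here. Raw whole-number counts per gene and library are the deposited values used for every test. The authors also deposited size-factor-scaled counts and dispersions, both scores that entered no test, and for each gene a fold ratio with its log2. The deposited p-values, raw and adjusted, belong to those fold ratios.

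From the raw counts, edgeR 4.0.16 in R 4.3.3 (TMM, filterByExpr, robust quasi-likelihood test, Benjamini-Hochberg over 15643 genes, tested on simulated data) compared PDGFRα+ with PDGFRα- libraries, with group as the only term. A fit with the replicate number as a block is given beside it where it changes a call. Its ground is that a DESeq2 1.42.0 model with number and group gave the deposited gene-wise dispersions (differences of at most 0.000158% over 29254 genes), while one with group alone differed by a median of 29.65%. The numbers themselves were not established as pairs: deviations of same-numbered libraries correlated at 0.23, 0.18, 0.02 and 0.25 over genes, the third under the 0.1 set as a minimum, and 1 of 8 libraries went best with another number. limma 3.58.1 (voom) and DESeq2 served as alternatives.

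Exonic lengths, positions and overlaps came from GENCODE M21, which holds 53620 of the 53801 identifiers. Log2 ratios used a prior count of 2. Exact permutation tests used scipy 1.17.1. All 10 members are named; of further lists, called genes and the 2 with the highest mean CPM. The members and lists were chosen with earlier results of these data known. Without molecular identifiers, reads may share a molecule.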

Additional observations from a re-analysis of the deposited data

How the results depend on the processing

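Of the 10 members, 0 were higher and 1 lower with group alone (30 and 8 over all genes). With the replicate block there were 1 and 2 (209 and 146 over all genes), with DESeq2 0 and 2 (156 and 116), and with no filter on low counts 1 and 2 (167 and 110). Limma-voom, median-ratio size factors, total library size and a mean CPM of at least 5 left Ogn as the single member called; total library size raised the median log2 fold change of all genes to 0.08. Leaving out 1 library in turn, members called lower ran from 0 to 1, and all genes from 7 to 39 higher and from 0 to 11 lower. With the replicate block and 1 number left out, members ran from 0 to 1 higher and from 0 to 3 lower, and all genes from 77 to 185 higher (124 and 178 without numbers 1 and 2) and from 22 to 115 lower (72 and 103). The Aspn log2 fold change (0.07) was 0.174 with total library size, ran up to 0.140 in the fits with group alone that leave out a library (without PDGFRα+ replicate 1) and to 0.172 with the block (without replicate 1), and turned to -0.0273 without PDGFRα+ replicate 2, -0.00636 without PDGFRα- replicate 3 and -0.0263 with the block without replicate 3. The other 9 members kept their sign in each of these fits. Leaving out a library, the difference of Dcn over Lum (0.03) ran from -0.0817 without PDGFRα+ replicate 2 to 0.116 without PDGFRα+ replicate 1, with -0.00033 without PDGFRα+ replicate 3 and -0.0114 without PDGFRα- replicate 1. The difference of Ogn over Omd (0.09) ran up to 0.519 and reached -0.0815 and -0.312 without PDGFRα+ replicates 1 and 4, and -0.168 and -0.0611 without PDGFRα- replicates 2 and 3. That of Fmod over Prelp ran from -2.44 to -0.64. With 3 against 4 libraries the exact test cannot go under 0.0571. The causes were not tested. The lowest counts of Omd and Fmod in a library were 18 and 10; whether depth limited them was not tested.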

Other observations

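Summed over the 10 genes, the proteoglycans took 0.92%, 0.87%, 0.80% and 0.63% of all counts of the PDGFRα+ fraction, numbers 1 to 4. Their share was 1.10%, 0.97%, 0.85% and 0.63% in the PDGFRα- fraction. The sum was highest in number 1 and lowest in number 4 of both fractions. Dcn took 43.7%, 43.8%, 44.4% and 44.0% of the summed CPM per kb in PDGFRα+ libraries, against 47.8%, 48.0%, 48.9% and 47.4% in PDGFRα- libraries 1 to 4, and the groups did not overlap. How often such shares separate the groups for other genes was not tested. Ogn over Dcn was -4.90, -5.68, -5.03 and -4.47 on the log2 scale in PDGFRα+, against -4.28, -4.03, -4.06 and -4.07 in PDGFRα- libraries 1 to 4, a spread of 0.50 (SD) within PDGFRα+ and 0.11 within PDGFRα-. This ratio also holds the difference of Ogn alone.

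The genes whose log2 CPM went most closely with Ogn over the 8 libraries, among 6248 others with a mean CPM of at least 20, were Col1a2 (Pearson r 0.977), the mechanosensitive channel gene Piezo2 (0.976), Aebp1, which encodes a collagen-binding matrix protein (0.967), Col3a1 (0.964) and Adcyap1r1, a receptor gene for the neuropeptide PACAP (0.962). The 8 points share the 2 groups and their libraries, so these values hold the group difference and are a description. As the genes were picked by this correlation and Ogn was called lower, their own group differences follow in part from the choice. All 5 had lower means in PDGFRα+ cells, with log2 fold changes from -0.92 for Piezo2 to -0.51 for Col3a1, none called with group alone (edgeR adjusted p from 0.113 to 0.297). With the number as a term Aebp1, Col3a1, Col1a2 and Adcyap1r1 were called as lower (edgeR adjusted p = 0.0104, 0.0107, 0.0137 and 0.0306) and Piezo2 was not (0.0859). Of all genes tested, 0.933% were called lower in that fit. Piezo2 was at 199 and 377 CPM in PDGFRα+ and PDGFRα- cells and Aebp1 at 501 and 803 CPM.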
